A study of Rattus norvegicus with 9 samples.

Results

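The 5 probes described here measure the miRNAs made from the paired muscle loci miR-1/miR-133a and miR-206/miR-133b. They were taken by name, as the probes called rno-miR-1, rno-miR-1*, rno-miR-133a, rno-miR-133b and rno-miR-206, and are 5 of the 334 miRNA probes on the chip. The study measured miRNAs in the soleus, a postural hindlimb muscle rich in slow fibres, of male Sprague-Dawley rats aged 6 months. It asked how unloading of the hindlimbs, which makes the muscle waste, alters the miRNA profile. The groups are control rats, rats suspended for 2 days and rats suspended for 7 days, the suspension being by a tail device that was fitted under pentobarbital and left the animals free to eat and drink. Each group has 3 arrays, which gives 9 in all, each hybridised with Cy5-labelled small RNA in 1 colour. No label states that the 3 samples of a group came from different rats, so p-values here measure only the spread between these samples.

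MiRNAs are short RNAs that pair with messenger RNAs, mainly through their seed (bases 2 to 8 from the 5′ end), and lower their translation or stability. MiR-1 and the miR-133 miRNAs are made in cardiac and skeletal muscle under the control of myogenic transcription factors and act in muscle differentiation and in the balance between differentiation and proliferation. MiR-206 is restricted to skeletal muscle, is most abundant in slow muscles such as the soleus, and is known for its part in regeneration and in the repair of neuromuscular synapses. MiR-1*, the opposite arm of the miR-1 hairpin, is the strand that is mostly degraded when miR-1 is loaded into its effector complex.

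The mature sequences show why the 5 probes fall into 2 seed pairs and a single. All are RefSeq sequences of the rat build GRCr8, written 5′ to 3′ with the seed in capitals.
rno-miR-1-3p: uGGAAUGUaaagaaguguguau
rno-miR-206-3p: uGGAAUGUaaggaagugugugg
rno-miR-133a-3p: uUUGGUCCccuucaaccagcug
rno-miR-133b-3p: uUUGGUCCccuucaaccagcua
rno-miR-1-5p: gCACAUACuucuuuauguaccc
MiR-1 and miR-206 share the seed GGAAUGU, which 2 of the 334 array targets hold, those of miR-1 and miR-206. Among 693 rat mature miRNAs in RefSeq, 3 hold that seed, and the third is miR-1b, which has no probe on the chip and differs from miR-1 by G17A, counted from the 5′ end of the miRNA. MiR-133a and miR-133b share the seed UUGGUCC, held by 2 of the 334 array targets and 2 of the 693 mature miRNAs. RefSeq names the miR-1* strand miR-1-5p, and its seed is found on no other array target.

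The chip's targets for paired members are nearly the same RNA. Over the 21 bases that the targets of miR-1 and miR-206 have in common from their 5′ ends, 2 differ, A11G and A21G, with miR-1 given first. The targets of miR-133a and miR-133b differ over 21 bases by G21A alone, and both begin at base 2 of the RefSeq mature sequence. The next closest target on the chip was 8 edits away from those of miR-1, miR-206 and miR-133a and 9 from that of miR-133b. How much of one miRNA's RNA binds the other's probe was not tested, so the members of a pair are not independent measurements. Nor was it tested how much miR-1b RNA, which differs from miR-1 by G17A, binds the miR-1 probe.

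The shared seeds cut across the loci. Mir1 lies on chromosome 18 of GRCr8, where the mature miR-1 occupies chr18:2160339-2160360 on the minus strand and miR-1* chr18:2160380-2160401. Mir133a1 lies 2368 bases away on the same strand (mature miR-133a at chr18:2157886-2157907), and both hairpins lie within the span of Mib1, a protein-coding gene (chr18:2075309-2199774). Mir206 and Mir133b lie on the plus strand of chromosome 9, with 3801 bases between their hairpins, within the span of the long non-coding RNA gene LOC120094648 (chr9:30582052-30595926). Their mature miRNAs are at chr9:30590747-30590768 and chr9:30594629-30594650. Each locus therefore carries 1 miRNA of each seed.

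The Mir1 hairpin is shown because 2 of the 5 probes read its arms, given in capitals with miR-1* first.
Mir1: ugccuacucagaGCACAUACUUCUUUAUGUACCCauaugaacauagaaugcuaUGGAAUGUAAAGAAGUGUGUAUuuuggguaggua
The hairpin is 87 bases long (chr18:2160327-2160413, minus strand, GRCr8). MiR-1 was among the brightest signals on the chip and miR-1* lay near background, as the values below give.

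Arrays were much alike over the whole chip, with a mean correlation of log2 brightness of 0.987 over pairs within groups and 0.984 over pairs between groups. Detection was judged against the empty spots: over 0.5 of a probe's 9 repeat spots had to exceed their 95th percentile, 31.6 to 73.3 scanner units depending on the array. Between 149 and 204 of the 334 probes met this per array, and the test took in the 178 that met it throughout some group. The tissue label was set against 6 striated muscle miRNAs, the 4 bright members with miR-499 and miR-208: 6 were detected on all 7-day arrays and 5 on all control and on all 2-day arrays, miR-208 being detected on no 2-day array. Their summed brightness was 157300 to 170200 on control arrays, 152900 to 172300 on 2-day arrays and 161400 to 174300 on 7-day arrays. Most of this sum comes from the 4 members themselves, so it is no check of muscle content separate from their own values. Of 5 blood-cell miRNAs, 2 were detected on all arrays, with miR-142-3p and miR-144 on none, and their summed brightness was 1836 to 2737 on control arrays, 1073 to 1996 on 2-day arrays and 1767 to 2244 on 7-day arrays. All listed miRNAs of endothelium (2) and of smooth muscle and fibroblasts (4) were detected on every array. The endothelial sum was 16530 to 19370 on control, 18050 to 18760 on 2-day and 21600 to 24680 on 7-day arrays. That of smooth muscle and fibroblasts was 14480 to 18480, 10620 to 19780 and 14160 to 20290 in the same order. The highest sum for nerve was 3721 and for epithelium and liver 523. In such whole-muscle RNA, fewer muscle cells and less of a miRNA per cell cannot be told apart.

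MiR-1, which acts in muscle differentiation, had the highest spot brightness of all probes on 9 of 9 arrays. Its brightness, the mean of its 9 spots in scanner units as deposited, was 53629, 54680 and 50679 on control arrays, 52584, 50085 and 52333 on 2-day arrays and 52901, 52228 and 52089 on 7-day arrays. The group means were 52996 ± 2074 in controls, 51667 ± 1376 at 2 days and 52406 ± 434 at 7 days (SD, n = 3 arrays each). The order was thus control, 7 days and 2 days from high to low, and the arrays of neighbouring groups in that order overlapped. Brightness depends on the probe as well as on the RNA, so the levels of different miRNAs are not set against each other.

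MiR-206, the slow and regenerating muscle miRNA, was the second brightest probe on 9 of 9 arrays. It measured 43479, 49267 and 44615 on control arrays, 48096, 43476 and 45992 on 2-day arrays and 46585, 47714 and 48298 on 7-day arrays. Its group means were 45787 ± 3067 in controls, 45855 ± 2313 at 2 days and 47532 ± 871 at 7 days (SD, n = 3 each). The order from high to low was 7 days, 2 days and control, and neighbours again overlapped: the 7-day arrays lay inside the range of the controls.

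MiR-133a, which in muscle is known to favour myoblast proliferation, measured 20689, 19397 and 19081 on control arrays, 15712, 18408 and 23127 on 2-day arrays and 18469, 19929 and 22942 on 7-day arrays. Its means were 19722 ± 852 in controls, 19082 ± 3753 at 2 days and 20447 ± 2281 at 7 days (SD, n = 3 each). Arrays of all groups overlapped, and the 2-day group holds both the lowest value of the 9, on array 1, and the highest, on array 3.

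MiR-133b, the member of the miR-206 locus, measured 26659, 25094 and 23989 on control arrays, 19646, 23366 and 28671 on 2-day arrays and 22985, 25164 and 29016 on 7-day arrays. Its means were 25247 ± 1342 in controls, 23894 ± 4536 at 2 days and 25722 ± 3054 at 7 days (SD, n = 3 each). MiR-133a and miR-133b had the same order of groups, 7 days, control and 2 days from high to low, with overlap between all of them. The SD of miR-133b at 2 days was 19.0% of its mean, against 5.31% in controls.

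MiR-1*, the strand opposite miR-1, was dim throughout. It measured 41.2, 73.2 and 31.5 on control arrays, 55.1, 142 and 98.7 on 2-day arrays and 34.1, 55.0 and 70.6 on 7-day arrays. It was detected on 2 of 3 control arrays, 2 of 3 2-day arrays and 3 of 3 7-day arrays, and so entered the test through the 7-day group. Its means were 48.6 ± 21.8 in controls, 98.6 ± 43.4 at 2 days and 53.2 ± 18.3 at 7 days (SD, n = 3 each). The empty-spot limit also differed between arrays: it was 43.0, 53.6 and 31.6 on the controls, 33.7, 73.3 and 54.1 on the 2-day arrays and 32.5, 32.0 and 38.4 on the 7-day arrays. The order from high to low was 2 days, 7 days and control, neighbours overlapped, and the part of the limit in this order was not tested.

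**Figure D1:**
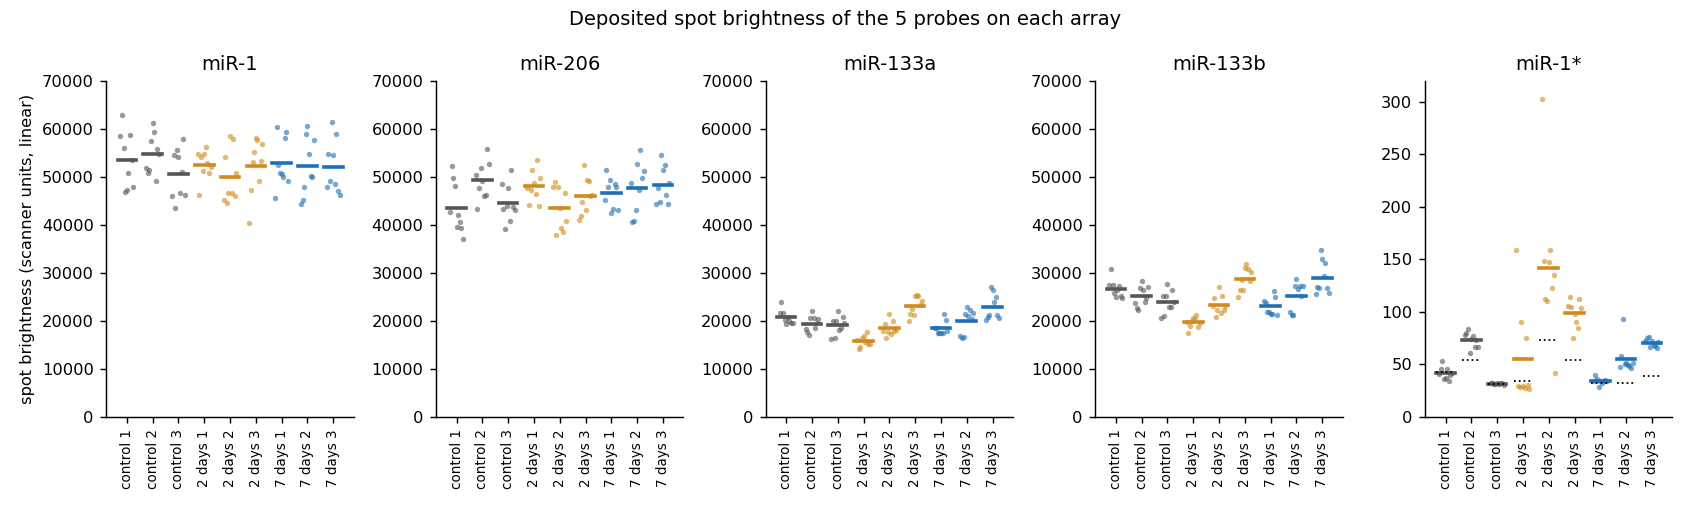
Spot brightness of each probe in scanner units on a linear axis, by array. Points are the 9 repeat spots, bars their mean, and dotted lines in the miR-1* panel each array's empty-spot limit, which has an axis of its own. MiR-1 spots lie between 40332 and 62914 in every group, while 3 miR-1* spots stand above the other 6 on 2-day array 1.

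On 2-day array 1 the miR-1* signal came from few spots. Its 3 spots in the first of the 3 columns of the chip that hold this probe had 75.2 to 159, while the other 6 had 26.7 to 29.8, below the limit of 33.7. The median of the 9 spots there was 29.3, against a mean of 55.1. On 2-day array 2 the spots ran from 41.6 to 303 with a median of 135, and on 2-day array 3 from 75.1 to 114 with a median of 104. Each miR-1* spot lies in the chip row directly below a miR-1 spot at the same column. On 2-day array 1 the miR-1 spots in the first column had 54807, 51301 and 52953, and the other 6 had 46189 to 56151. Whether a miR-1 spot adds to the signal of the spot below it was not tested. In the authors' deposited table of processed values miR-1* stood at 14, 38 and 1 on control arrays, 1, 51 and 36 on 2-day arrays and 1, 25 and 33 on 7-day arrays, where 1 is the lowest value of that table.

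MiR-1 and miR-206 fill the top of the measured range. The highest spot of each array was a miR-1 spot on 9 of 9 arrays, at 56151 to 62914. A total of 68 spots on the 9 arrays exceeded 50000, and all 68 belonged to members: 52 of the 81 miR-1 spots (64.2%) and 16 of the 81 miR-206 spots (19.8%). The scanner's bit depth is not given in the sources used here, and if it was 16 bits, with a maximum of 65535, then 1 spot lay within 5% of the top. For miR-1 the highest spot mean plus 2 within-spot standard deviations was 65869, for miR-206 57745, for miR-133b 35521 and for miR-133a 27730. No miR-133a or miR-133b spot exceeded 34755.

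Before normalisation between arrays, the spread of miR-1 and miR-206 over the 9 arrays was small for their brightness. The SD of log2 brightness was 0.039 for miR-1 and 0.069 for miR-206, the lowest and the second lowest of the 29 probes with a mean brightness over 10000. Those 29 had a median SD of 0.137 and a highest of 0.356. MiR-133a and miR-133b, at 0.17 and 0.172, were the 22nd and 23rd from the lowest. Between the repeat spots of 1 array, the SD of miR-1 was 5.66 to 11.6% of the mean, beside 5.65 to 11.8% for miR-133b. Whether the narrow spread between arrays comes from a response that flattens near the top of the scale was not tested.

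Quantile normalisation, which gives every array the same set of values, fixes the 2 brightest probes almost entirely. After it the SD within groups was 0.0135 for both miR-1 and miR-206, beside a median of 0.214 over the 178 tested probes, and their values over the 9 arrays moved exactly opposite each other (r = -1). That opposition is arithmetic, since both probes divide the same top values between them on each array. For that reason fold changes below are given under 3 scalings: quantile normalised values, values with no normalisation between arrays, and values centred on the median of the 143 probes detected on all 9 arrays. Centring has a limit too. It raised the SD over the 9 arrays from 0.039 to 0.36 for miR-1 and from 0.069 to 0.354 for miR-206. The centred values of these 2 probes therefore mostly restate each array's median.

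**Figure D2:**
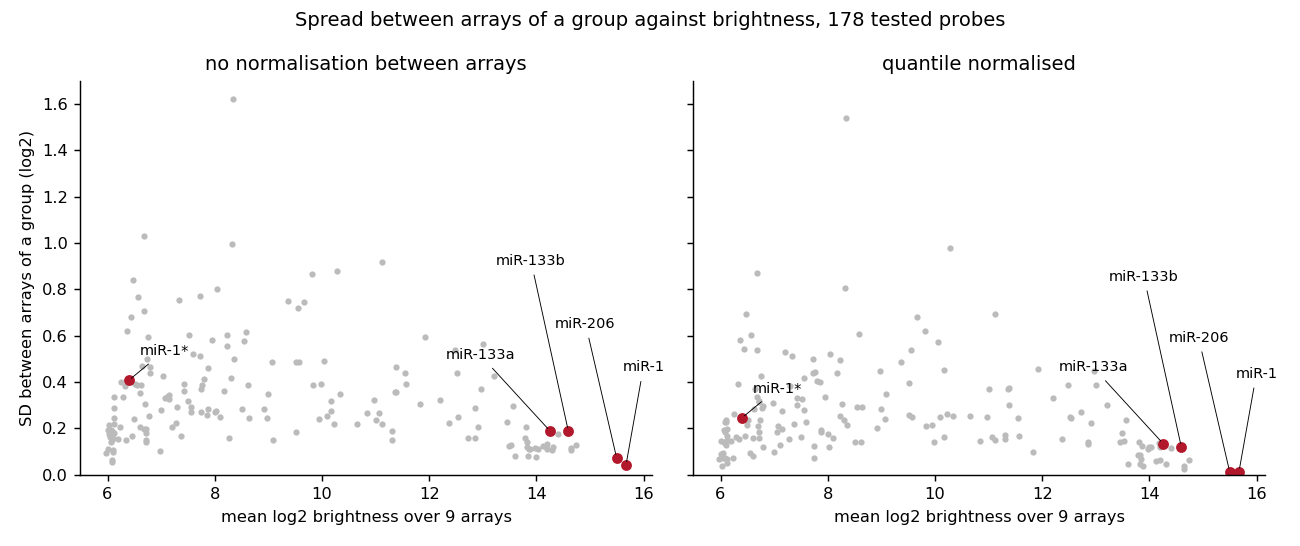
SD between arrays of a group (log2, pooled over 3 groups) against mean log2 brightness over 9 arrays, for 178 tested probes (grey) with the 5 members in red. Left, no normalisation between arrays; right, quantile normalised, where miR-1 and miR-206 sit at 0.0135.

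After 2 days of suspension no member passed the test. With limma on quantile normalised values, 0 of 5 members had an adjusted p under 0.05, beside 0.562% of the 178 tested probes. The log2 fold change of miR-1 was -0.01 ± 0.06 (SE; 95% interval -0.15 to 0.14) and that of miR-206 0.01 ± 0.06 (-0.14 to 0.15). Quantile normalisation nearly fixes these 2 probes, so fold changes near 0 were set in advance and do not measure an absence of change. Their SE comes mostly from the spread that limma shares between probes, as their own SD within groups was 0.0135. MiR-133a had -0.09 ± 0.11 (-0.36 to 0.17) and miR-133b -0.05 ± 0.11 (-0.30 to 0.19). Limma's adjusted p was 0.974 to 0.977 for these 4. The values and the sign of miR-206 moved with the scaling. Without normalisation between arrays miR-1 stood at -0.04 (95% interval -0.28 to 0.20), miR-206 at 0.00 (-0.25 to 0.26), miR-133a at -0.06 (-0.44 to 0.31) and miR-133b at -0.09 (-0.47 to 0.28), beside a median of 0.07 over all tested probes. Centred on the median of detected probes they stood at -0.16 (-0.74 to 0.43), -0.12 (-0.71 to 0.48), -0.19 (-0.66 to 0.29) and -0.22 (-0.69 to 0.25) in the same order, beside -0.05 over all tested probes. Limma called 0 of 5 members under both, beside 0% of tested probes. At an unadjusted p under 0.05 the count was 0 of 5 without normalisation and 1 of 5, miR-1*, after centring, beside 5.06% of tested probes under each. The 2-day and control arrays of each of the 4 overlapped under every one of the 3 scalings. Those of 7.87% of tested probes, in either direction, did not overlap in quantile normalised values, with 6.74% both without normalisation and after centring.

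MiR-1* had the largest 2-day difference among the members, at a level near background. Its quantile normalised log2 brightness was 6.60 ± 0.19 at 2 days and 6.16 ± 0.30 in controls (SD, n = 3 each), a log2 fold change of 0.44 ± 0.19 (SE; 95% interval 0.01 to 0.87). The unadjusted limma p was 0.048 and the adjusted p 0.711, and 6.74% of tested probes had an unadjusted p under 0.05. With the median of the repeat spots in place of their mean, the log2 fold change was 0.27. With each array's median empty spot subtracted it was 1.50, and over all 30 alternatives limma's adjusted p ran from 0.257 upward. The arrays of the groups overlapped in quantile normalised values. Centred on the median of detected probes, miR-1* had 6.86, 6.96 and 6.66 on 2-day arrays and 6.23, 6.58 and 6.19 on control arrays, which do not overlap. Under that scaling 4.49% of tested probes had 2-day arrays all above the controls. On 2-day array 1, at 6.86, miR-1* was not detected. The median of its 9 spots there was 29.3 scanner units, against 40.7, 74.1 and 31.8 on the control arrays.

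After 7 days 0 of 5 members passed limma's threshold, beside 0% of the 178 tested probes, and 0 members had an unadjusted p under 0.05, beside 14% of tested probes. The quantile normalised log2 fold changes were -0.02 ± 0.06 for miR-1 (SE; 95% interval -0.16 to 0.13) and 0.02 ± 0.06 for miR-206 (-0.13 to 0.16). Those of miR-1 and miR-206 were again nearly fixed by the normalisation. MiR-133a had -0.12 ± 0.11 (-0.38 to 0.15), miR-133b -0.11 ± 0.11 (-0.36 to 0.13) and miR-1* 0.10 ± 0.19 (-0.33 to 0.53). Limma's adjusted p ran from 0.865 to 0.951 over the 5. The median of the 5 fold changes was -0.02 and that of all tested probes -0.03. With 1 array left out, miR-1* ran from 0 without control array 3 to 0.27 without control array 2, and stood at 0.25 without 7-day array 1. The 7-day and control arrays overlapped for all 5 members, beside 23.6% of tested probes whose arrays did not.

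The direction at 7 days turned with the scaling. Without normalisation between arrays, miR-1 stood at -0.02 (95% interval -0.26 to 0.22), miR-206 at 0.06 (-0.20 to 0.31), miR-133a at 0.04 (-0.33 to 0.42) and miR-133b at 0.02 (-0.36 to 0.40), beside a median of 0.14 over all tested probes. Centred on the median of detected probes they stood at -0.41, -0.34, -0.35 and -0.38 in the same order, beside a median of -0.25 over all tested probes, with limma adjusted p of 0.357 to 0.493. MiR-1* stood at 0.08 (-0.60 to 0.77) without normalisation and turned to -0.31 (-0.76 to 0.13) after centring. Under that scaling alone, the 7-day arrays of the 4 bright members all lay below the controls, as did those of 36% of tested probes. Counting both directions, centring separated the groups for 42.7% of tested probes. Without normalisation 28.1% were separated, and 0 of the 5 members. MiR-1, centred, had 15.67, 15.60 and 15.07 on 7-day arrays, against 15.87, 15.75 and 15.96 on control arrays. The medians used for centring were 9.456, 9.505 and 10.028 on those 7-day arrays and 9.27, 9.43 and 9.099 on the controls. For miR-1 and miR-206 the centred fold changes and the separation mostly mirror these medians and are no separate measure of the 2 miRNAs. The median of the 5 members was 0.04 without normalisation and -0.35 after centring. Limma called 0 of 5 members under either scaling, beside 5.62% of tested probes without normalisation and 0% after centring. At an unadjusted p under 0.05 it was 0 of 5 under both, beside 15.7% of tested probes under each.

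**Figure D3:**
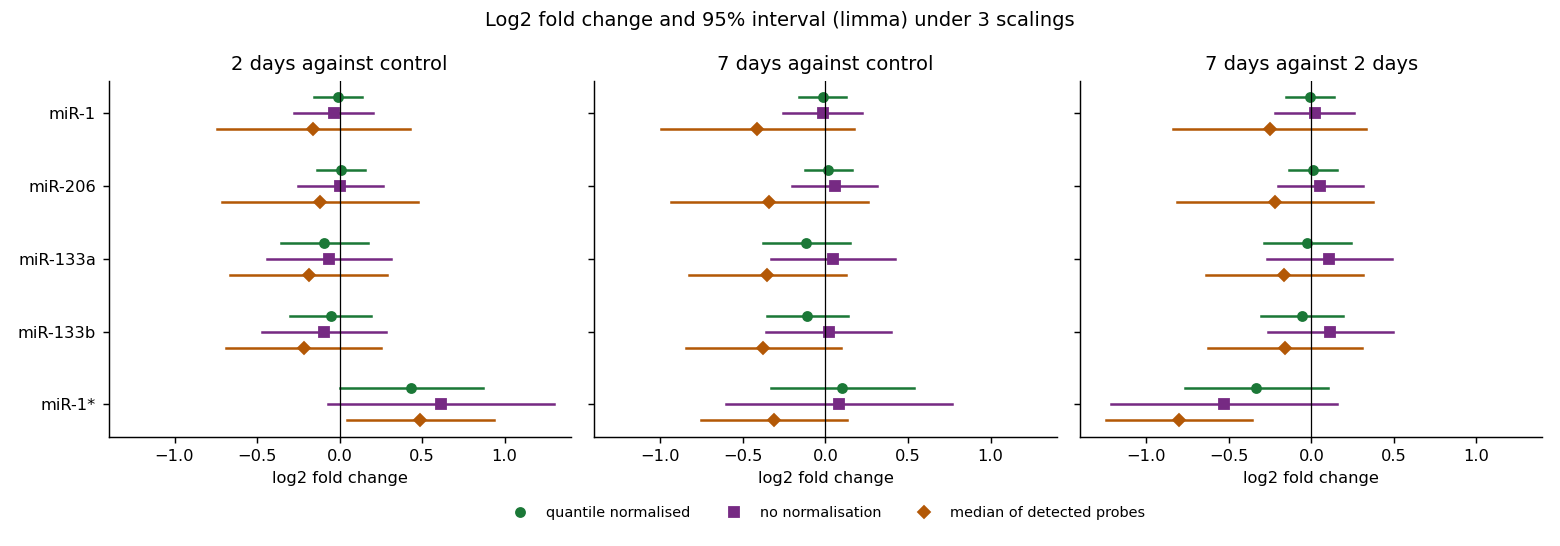
Log2 fold change (point) and 95% interval (line) from limma for each member in 3 comparisons, under 3 scalings. Intervals of miR-1, miR-206, miR-133a and miR-133b include 0 in every panel, and at 7 days their points lie near 0 or between -0.41 and -0.34 according to the scaling.

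Between 7 and 2 days of suspension, quantile normalisation again nearly fixed miR-1 and miR-206. In its values miR-1, miR-206, miR-133a and miR-133b had log2 fold changes of -0.01, 0.01, -0.02 and -0.06. Without normalisation these were 0.02, 0.05, 0.11 and 0.11, beside a median of 0.12 over all tested probes, and after centring -0.25, -0.22, -0.17 and -0.16, beside -0.15, so that their direction turned with the scaling. MiR-1* had -0.33 ± 0.19 (SE; 95% interval -0.76 to 0.10; limma adjusted p = 0.933), and -0.19 without 7-day array 1. With limma 0 of 5 members passed the threshold, beside 0% of the 178 probes, and 0 had an unadjusted p under 0.05, beside 5.62%. Under both other scalings limma also called 0 of 5, beside 0%. At an unadjusted p under 0.05 it was 0 of 5 without normalisation, beside 6.18%, and 1 of 5, miR-1*, after centring, beside 14.6%. MiR-1* had 6.00, 6.41 and 6.39 on 7-day arrays and 6.46, 6.81 and 6.53 on 2-day arrays in quantile normalised log2 brightness, so that the groups did not overlap. The same held, in that direction, for 1.12% of tested probes (6.18% in either direction). Centred on the median of detected probes the difference was -0.80 ± 0.20 (SE, 95% interval -1.25 to -0.36, limma adjusted p = 0.116), and the groups did not overlap, as for 14% of tested probes. Both separations rest on the mean of the spots on 2-day array 1, where miR-1* was not detected. The median of its 9 spots there was 29.3 scanner units, below the 33.9, 50.6 and 71.4 of the 7-day arrays. Without normalisation the difference of miR-1* was -0.53, with overlapping arrays, beside 11.8% of probes whose arrays did not overlap. Both comparisons of suspended with control arrays use the same 3 controls, and this one shares its arrays with both.

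Multiplying all values of an array by 1 factor does not alter the log2 difference between 2 members on it. Quantile normalisation is not such a factor and does alter these differences. Nor does an array's brightness cancel where 1 of the 2 probes follows it less than the other, which was not tested. The differences were taken on log2 brightness before normalisation between arrays, as the difference of 2 probes on the same array, used only to ask whether it shifts between groups. Exact two-sided permutation tests were run for 4 pairs in 3 comparisons, 12 tests, and with 3 arrays against 3 the smallest p is 0.1. All 12 had a Benjamini-Hochberg adjusted p of 0.9, and the groups overlapped in each.

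The miR-1 and miR-206 pair, of 1 seed and 2 loci, had differences (miR-1 minus miR-206) of 0.30, 0.15 and 0.18 on control arrays, 0.13, 0.20 and 0.18 on 2-day arrays and 0.18, 0.13 and 0.11 on 7-day arrays. The means were 0.17 ± 0.04 at 2 days and 0.21 ± 0.08 in controls (SD, n = 3 each; exact permutation p = 0.7), with 0.14 ± 0.04 at 7 days (p = 0.2 against controls by the same exact test). The widest difference was that of control array 1, where miR-206 was at its lowest control value.

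For miR-133a minus miR-133b, also 1 seed and 2 loci, the differences were -0.37, -0.37 and -0.33 on control arrays, -0.32, -0.34 and -0.31 on 2-day arrays and -0.32, -0.34 and -0.34 on 7-day arrays. The means were -0.33 ± 0.02 at 2 days and -0.36 ± 0.02 in controls (SD, n = 3 each; exact permutation p = 0.2), with -0.33 ± 0.01 at 7 days (exact permutation p = 0.3 against controls). Though each probe varied over the 9 arrays with an SD of 0.17, their difference varied with an SD of 0.021. That was the third lowest SD among the 406 pairs of the 29 bright probes, whose median was 0.137; the lowest were miR-23a with miR-23b at 0.015 and let-7d with let-7f at 0.016.

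The 2 probes of the miR-133 pair also varied together from spot to spot. Their spots lie in neighbouring rows of the chip at the same columns. Over the 81 matched spots the brightness of miR-133a over that of miR-133b ran only from 0.733 to 0.836, and the correlation was 0.987, a description of spots that share an array and a place on the chip. Within an array the SD of the matched log2 difference had a median of 0.023, against 0.122 for the spots of either probe. The miR-1 and miR-206 spots, matched in the same way, had ratios of 0.903 to 1.50 and a correlation of 0.363. These 2 probes lie 3 columns apart.

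**Figure D4:**
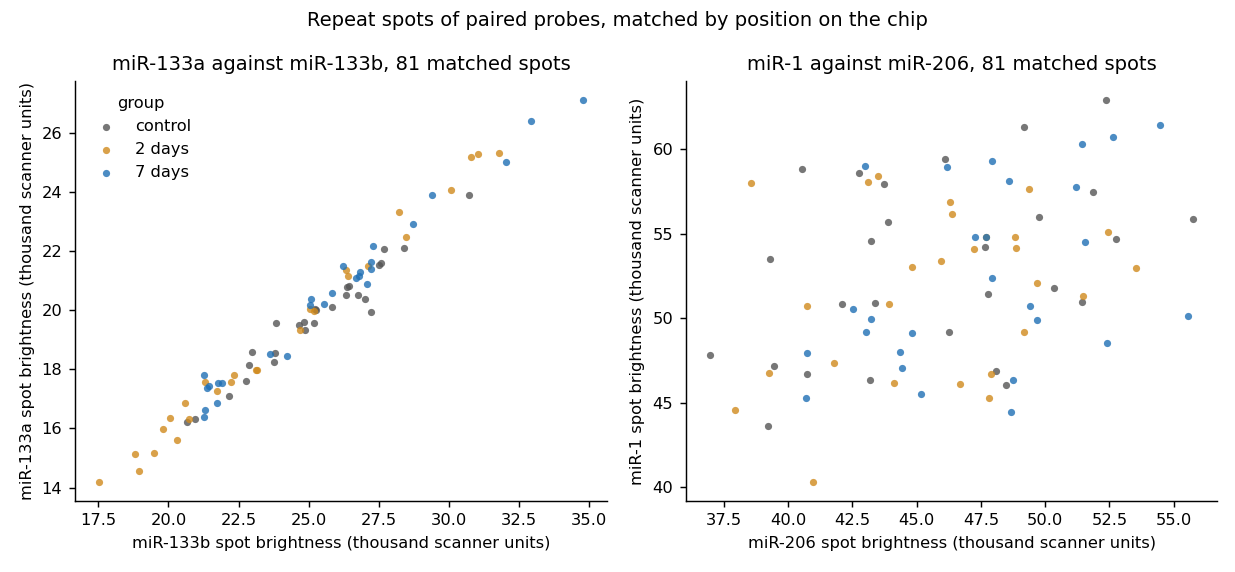
Brightness of matched repeat spots (81 per panel, scanner units as scaled on the axes, points coloured by group) for miR-133a against miR-133b, left, and miR-1 against miR-206, right. Axes do not start at 0. The left panel follows a line (r = 0.987) and the right panel is a broad cloud (r = 0.363).

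Differences between members of the same locus varied more from array to array than those within seed pairs, with SDs over the 9 arrays of 0.173 and 0.189, beside 0.058 and 0.021. The first 2 SDs lie close to those of miR-133a and miR-133b alone, 0.17 and 0.172. MiR-1 and miR-206, at the top of the measured range, had 0.039 and 0.069. Whether locus, binding to similar probes or the top of the scale lies behind the contrast was not tested. MiR-1 minus miR-133a, the chromosome 18 locus, averaged 1.45 ± 0.28 at 2 days and 1.42 ± 0.07 in controls (SD, n = 3 each; exact permutation p = 0.8), and 1.36 ± 0.17 at 7 days (exact permutation p = 0.8 against controls). The 2-day arrays had 1.74, 1.44 and 1.17, and the control arrays 1.37, 1.50 and 1.41. MiR-206 minus miR-133b, the chromosome 9 locus, averaged 0.96 ± 0.31 at 2 days and 0.86 ± 0.14 in controls (SD, n = 3 each; exact permutation p = 0.9), and 0.89 ± 0.14 at 7 days (exact permutation p = 0.7 against controls). For both loci 2-day array 1 had the widest difference and 2-day array 3 the narrowest of the 9. The median log2 brightness of the probes detected on all 9 arrays was 8.822 on 2-day array 1 and 9.641 on 2-day array 3. It was 10.028 on 7-day array 3, where miR-1 minus miR-133a was 1.184. Whether these differences follow the brightness of the array was not tested. Without 2-day array 1 both differences at 2 days turned sign, to -0.12 for the first locus and -0.07 for the second.

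**Figure D5:**
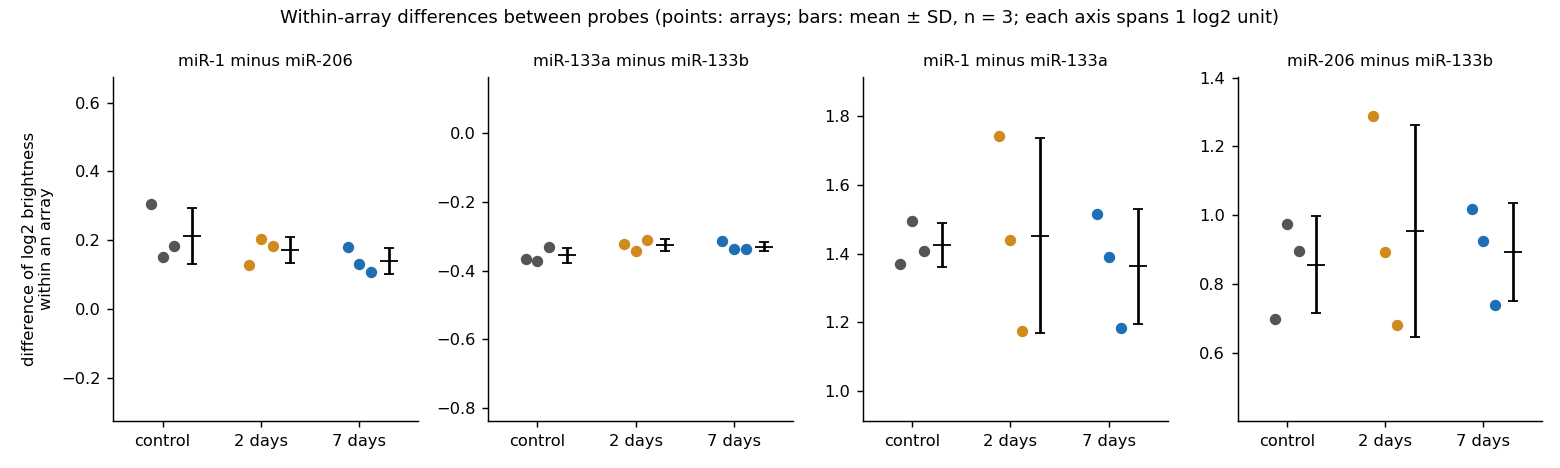
Difference of log2 brightness between 2 probes on the same array, by group, with points for arrays and bars for the mean ± SD (n = 3). Each axis spans 1 log2 unit. The miR-133a and miR-133b arrays lie between -0.37 and -0.31, while both same-locus pairs are spread most at 2 days.

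The probes most like each member were sought over the 9 arrays in log2 brightness centred on the median of detected probes, by Pearson correlation among 166 other tested rat miRNAs. All such values carry the same array's median, so the typical correlation was high, with medians of 0.58 to 0.63, and the figures are a description. MiR-133a and miR-133b were most like each other (r = 0.997), and next came miR-541 (0.949) and miR-30a-5p (0.947) for miR-133a, and miR-30a-5p (0.944) and miR-499 (0.938) for miR-133b. MiR-1 was most like miR-206 (0.987), then miR-16 and miR-30c (0.969 each). MiR-206 was most like let-7a (0.989), miR-1 (0.987) and let-7f (0.986). Most of these correlations were much lower or negative in quantile normalised values. There miR-133a and miR-133b kept 0.975 with each other, and 0.873 and 0.845 with miR-30a-5p. The others were -0.438 for miR-133a with miR-541, 0.323 for miR-133b with miR-499, 0.316 and -0.272 for miR-1 with miR-16 and miR-30c, and -0.215 and -0.278 for miR-206 with let-7a and let-7f. MiR-1 with miR-206 had -1 by arithmetic. As quantile normalisation nearly fixes miR-1 and miR-206, their values there cannot show whether a likeness fails. Without normalisation between arrays, the correlation of miR-133a with miR-133b was 0.993 and that of miR-1 with miR-206 0.528, while miR-1 with miR-133a, of the same locus, had 0.04.

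Other miRNAs with known roles in muscle gave no call beside the members in quantile normalised values, the only scaling in which they were counted. Of 19 listed, among them miR-499 of the slow-fibre programme, miR-29 and miR-181 family members and miR-221 and miR-222 of proliferating myoblasts, 18 were on the chip and tested. At 2 days 6 were higher and 12 lower, with a median log2 fold change of -0.07 and 0 past limma's threshold (2 of 18 at an unadjusted p under 0.05, beside 6.74% of all tested probes). Those 2 were miR-222 at -0.54 (limma adjusted p = 0.060) and miR-221 at -0.50 (limma adjusted p = 0.131). At 7 days 6 were higher and 12 lower, with a median of -0.05 and 0 past the threshold (4 of 18 at an unadjusted p under 0.05, beside 14% of all tested probes). Of those 4, miR-222 had -0.61 (limma adjusted p = 0.087) and miR-221 -0.60 (limma adjusted p = 0.095). The others were miR-214 at -0.52 and miR-29b at 0.78. Among all 178 tested probes 71 were higher and 107 lower at 2 days, and 74 higher and 104 lower at 7 days.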

How the data were processed

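Soleus miRNA was measured on 9 arrays of 1 colour. Per the labels, 5 µg of total RNA was used per assay and the mean RNA integrity number was 8.4 ± 0.5. The deposited scanner files give, per the file headers, the mean brightness (intensity) of each of 3968 spots and its standard deviation within the spot, with no local background. The authors' deposited value table, whole-number intensity values of the same arrays, was used as an alternative. The image software, background steps and bit depth were not given in the sources used here. Precision is limited by 3 arrays per group.

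Spot brightness was corrected with normexp (offset 50, fitted on all spots of an array), log2 transformed and quantile normalised over miRNA spots, and the 9 repeat spots were averaged. The model, in limma 3.58.1 and R 4.3.3, had a mean for each group over the 9 arrays (7.78 total degrees of freedom) and Benjamini-Hochberg adjustment over 178 tested probes at a threshold of 0.05. The normexp step was set with no local background at hand. Scaling to the median of the 143 probes detected on all arrays, also used for likeness, and scaling by control spots were chosen after seeing the data, because the median of all probes lay near the empty spots. Members, lists and rules were chosen with earlier results of these data known. All 5 members are named whatever their values, with the 3 most alike probes of each member detected on all arrays. The script was tested on simulated data. Sequences and gene positions are RefSeq's (GRCr8).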

Additional observations from a re-analysis of the deposited data

How the results depend on the processing

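No member passed limma's threshold under any of the 450 combinations of 15 fold changes with up to 30 alternatives, and the smallest adjusted p was 0.0913. Most alternatives kept quantile normalisation, so for miR-1 and miR-206 most of these outcomes were nearly fixed in advance. The count of 450 therefore does not measure how firm the result is for these 2 probes. The members' small fold changes have no settled sign. Alternatives that gave a fold change of 0 or of the other sign follow on the log2 scale, and the cause was not tested unless stated. Centring on the median of all miRNA probes gave -0.181 for miR-206 (2 days against control), 0.048 for miR-1, 0.109 for miR-133a and 0.084 for miR-133b (7 days against control) and 0.27 for miR-1, 0.358 for miR-133a and 0.363 for miR-133b (7 days against 2 days). Centring on the median of the detected probes gave -0.119 for miR-206 (2 days against control), -0.312 for miR-1* and -0.34 for miR-206 (7 days against control) and -0.221 for miR-206 (7 days against 2 days). Centring on the 75th percentile gave -0.191 for miR-206 (2 days against control), -0.271 for miR-1* and -0.299 for miR-206 (7 days against control) and -0.108 for miR-206 (7 days against 2 days). Centring on the 75th percentile of the detected probes gave -0.08 for miR-206 (2 days against control), -0.278 for miR-1* and -0.306 for miR-206 (7 days against control) and -0.226 for miR-206 (7 days against 2 days). No normalisation between arrays gave 0.044 for miR-133a and 0.019 for miR-133b (7 days against control) and 0.02 for miR-1, 0.108 for miR-133a and 0.113 for miR-133b (7 days against 2 days). Cyclic loess gave 0.003 for miR-1 (2 days against control), -0.069 for miR-206 (7 days against control) and -0.105 for miR-206 (7 days against 2 days). Scaling by control spots gave -0.036 for miR-206 (2 days against control), -0.074 for miR-1* and -0.102 for miR-206 (7 days against control) and -0.066 for miR-206 (7 days against 2 days). Spots over 50000 left out gave -0.02 for miR-206 (2 days against control), -0.031 for miR-206 (7 days against control) and 0.072 for miR-1 and -0.011 for miR-206 (7 days against 2 days). The median of the repeat spots gave 0 for miR-206 (2 days against control). Array weights gave 0.004 for miR-133a and 0.039 for miR-133b (2 days against control). The authors' table after quantile normalisation gave 0 for miR-1 and miR-206 (2 days against control), 0 for miR-1 and miR-206 (7 days against control) and 0 for miR-1, 0.044 for miR-133a, 0.002 for miR-133b and 0 for miR-206 (7 days against 2 days). These zeros of miR-1 and miR-206 are arithmetic. Each probe has 1 value per array there and kept its rank on every array, so the normalisation gave it the same value throughout. The authors' table as deposited gave -0.058 for miR-206 (2 days against control) and 0.055 for miR-1 and 0.034 for miR-133b (7 days against 2 days). The authors' table with 50 added gave -0.058 for miR-206 (2 days against control) and 0.055 for miR-1 and 0.034 for miR-133b (7 days against 2 days). Leaving out 1 array at a time gave -0.167 to 0.019 for miR-133a and -0.127 to 0.047 for miR-133b (2 days against control), 0 to 0.273 for miR-1* (7 days against control) and -0.021 to 0.001 for miR-1, -0.136 to 0.054 for miR-133a, -0.161 to 0.014 for miR-133b and -0.001 to 0.021 for miR-206 (7 days against 2 days). MiR-1* ran from 0.327 to 0.609 (2 days against control) and from -0.421 to -0.186 (7 days against 2 days). MiR-133a and miR-133b turned sign at 2 days without 2-day array 1.

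Changes of within-array differences also turned sign, with exact permutation p of 0.1 or more throughout. With spots over 50000 left out the changes were 0.037 for miR-1 minus miR-206 (7 days against 2 days). With the median of the repeat spots the changes were 0.003 for miR-133a minus miR-133b (7 days against 2 days). With the authors' table as deposited the changes were 0.08 for miR-1 minus miR-133a and -0.01 for miR-133a minus miR-133b (7 days against control) and 0.063 for miR-1 minus miR-133a and 0.036 for miR-206 minus miR-133b (7 days against 2 days). With quantile normalised values the changes were -0.037 for miR-133a minus miR-133b (2 days against control), 0.098 for miR-1 minus miR-133a and -0.004 for miR-133a minus miR-133b (7 days against control) and 0.016 for miR-1 minus miR-133a, 0.033 for miR-133a minus miR-133b and 0.065 for miR-206 minus miR-133b (7 days against 2 days). Leaving out 1 array at a time gave -0.117 to 0.167 for miR-1 minus miR-133a, -0.072 to 0.005 for miR-1 minus miR-206 and -0.069 to 0.235 for miR-206 minus miR-133b (2 days against control), -0.136 to 0.029 for miR-1 minus miR-133a and -0.041 to 0.115 for miR-206 minus miR-133b (7 days against control) and -0.228 to 0.056 for miR-1 minus miR-133a, -0.014 to 0.003 for miR-133a minus miR-133b and -0.197 to 0.107 for miR-206 minus miR-133b (7 days against 2 days).

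MiR-1* was detected on 1 control array with the 99th percentile of the empty spots as the limit. With all 9 repeat spots required, it was detected on 1 2-day array, 2 7-day arrays and 1 control array. The other members were detected on all arrays under both. The number of probes limma called at 2 days, 1 of 178, became 4 with array weights, 2 with no detection filter and 2 with no moderation of the spread. It became 0 with either 75th percentile centring, no normalisation, the median empty spot subtracted, the arrays of the compared groups alone, the authors' table quantile normalised, the detected-probe median or the control-spot scaling, and 0 to 4 with 1 array left out (4 without 2-day array 1). At 7 days the number, 0 of 178, became 16 with the median of all miRNA probes, 10 with no normalisation, 10 with array weights, 5 with the arrays of the compared groups alone, 2 with the authors' table with and without 50 added, 1 with 75th percentile centring, and 0 to 3 with 1 array left out. For 7 days against 2 days it became 16 with the median of all miRNA probes.

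Equal replicate numbers gave no sign of pairs, though so few arrays cannot exclude pairing. Deviations of arrays with the same number correlated at -0.4 to 0.35, beside -0.55 to 0.469 for different numbers. Of the 9 arrays, 3 correlated best with their own number. With the replicate block the number of probes called stayed at 1 at 2 days and 0 in the other comparisons, and miR-1* at 2 days had a log2 fold change of 0.44 (limma adjusted p = 0.259). Dim signal limits miR-1*, and the unknown bit depth leaves unmeasured how near miR-1 and miR-206 came to saturation. The 3 arrays per group limit all 5 members.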
